A study of Mus musculus with 8 samples.

Results

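The transcripts described here are those of the mouse mitochondrial genome: all 37 features whose chromosome is given as MT in the deposited gene tables, out of 41388 features in all. By annotated class they were 13 protein-coding genes, 2 ribosomal RNAs (rRNAs) and 22 transfer RNAs (tRNAs), with 28 on the plus strand and 9 on the minus strand. The minus strand carried mt-Nd6 and 8 of the tRNAs. The question asked of them was whether the 3 classes differed alike between livers of the 2 groups.

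RNA came from livers of db/db mice, which lack a working leptin receptor and become obese and diabetic. The mice were littermates of the strain label C57B/6J, were randomised at 5 weeks of age and were 10 weeks old when sampled, and the genotype label reads "control" for every sample, so db/db rests on the titles. They received by tail vein an adenovirus encoding green fluorescent protein (AdGFP, n = 4) or NAMPT, the enzyme of NAD salvage (AdNAMPT, n = 4), and the series gives 4 to 5 weeks of overexpression. Both groups therefore carried a virus, and no library from a mouse without virus was used here. Shorter times after adenovirus delivery stand in the study's methods and in its figure legend for adipose tissue of such mice. The labels say neither which promoter drove the transgene nor whether replicate numbers mark littermates.

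Libraries held 12006713 to 19879814 counts, and values listed per library stand in the order of replicates 1 to 4. Nampt itself spanned 102.3 to 152.7 CPM (each count scaled to a common library total) in AdGFP and 120.5 to 177.8 CPM in AdNAMPT, with a log2 fold change of 0.08 (SE 0.15; limma adjusted p 0.915), so AdNAMPT below means the libraries labelled so. Summed hepatocyte markers (Alb, Apoa1, Ttr, Cps1 and Cyp2e1) lay between 91941 and 117698 CPM in AdGFP and between 91724 and 116253 CPM in AdNAMPT. Of 5 markers per cell type, 1 Kupffer cell marker and 1 T cell marker did not overlap between the groups. All 5 overlapped for each of sinusoidal endothelial cells, stellate cells, cholangiocytes and erythroid cells, and no marker was at 0 in every library. Among all 12272 features tested, 0.872% were lower and 7.36% higher in AdNAMPT without overlap on CPM. Those features were over 1 CPM in at least 3 libraries, whereas the 5 T cell markers together reached at most 2.31 CPM. The summed Kupffer cell markers spanned 193 to 236 CPM in AdGFP and 142 to 229 CPM in AdNAMPT, and the summed T cell markers 0.877 to 1.41 CPM and 1.33 to 2.31 CPM; their part in the results was not tested. In whole liver, fewer cells of a type and less RNA per cell cannot be told apart.

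The mitochondrial genome is a small circle that is transcribed from both strands into long precursors. Enzymes then cut these precursors at the tRNAs that lie between the other genes, so that the rRNAs, the mRNAs and the tRNAs come from shared transcripts and reach different steady levels through their own stability. The rRNAs build the mitochondrial ribosome, the tRNAs decode its messages, and the proteins are subunits of the respiratory complexes and of ATP synthase, which hepatocytes use for oxidation of fatty acids. Copies of mitochondrial DNA also lie in the nuclear genome.

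Which of the 37 features could be counted at all differed by position. Counts were found for 24 features, while 13 had 0 counts in every library: 6 of the 13 protein-coding genes and 7 of the 22 tRNAs. A count of 0 allows at most 0.151 to 0.250 CPM of the reads that the counting kept, taking 3 counts per library as the limit, which covers counting error only. The 6 coding genes were mt-Co2 and mt-Co3 (subunits of cytochrome c oxidase), mt-Atp6 and mt-Atp8 (subunits of ATP synthase), and mt-Nd3 and mt-Nd4l (subunits of complex I). They lie side by side. From mt-Ts1 to mt-Nd4l (MT 6870 to 10173 on GRCm38, 3304 bases) 10 of 11 features were at 0, the exception being mt-Tr, the tRNA for arginine. Among the 26 features outside that stretch, 3 were at 0, the tRNAs mt-Tw, mt-Ty and mt-Th.

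The files hold only reads aligned to 1 place in the genome, so each mitochondrial gene was searched for windows of 50 bases, the read length, that also stand letter for letter in an annotated nuclear transcript. All 635 windows of mt-Co2 were found in nuclear transcripts, as were 629 of 632 in mt-Atp6, 734 of 735 in mt-Co3, 293 of 299 in mt-Nd3 and 245 of 248 in mt-Nd4l. The matching transcripts were chiefly unprocessed pseudogenes in a row on the minus strand of chromosome 1, between 24611535 and 24616197: Gm28661 (mt-Co2), Gm10925 (mt-Atp6), Gm28437 (mt-Co3), Gm28438 (mt-Nd3), Gm10222 (mt-Nd4l), Gm28439 (mt-Nd4) and Gm29216 (mt-Co1). Over 681, 678, 783 and 294 aligned bases, Gm28661, Gm10925, Gm28437 and Gm10222 were identical to their mitochondrial counterparts. For mt-Atp8, 0 of 155 windows matched an annotated transcript. The tRNAs at 0 in the same stretch, mt-Ts1, mt-Td, mt-Tk and mt-Tg, also had 0 matches, of 20, 21, 16 and 19 windows. The nuclear genome sequence itself was not searched here, so shared sequence outside annotated transcripts was not tested.

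Gm28438 differed from mt-Nd3 by 1 substitution over 345 bases, T3C, with positions counted from 1 at the 5′ end of the mitochondrial gene and its base given first. The first 40 bases of both are shown because they carry the sole letter that separates them, which is in capitals (mt-Nd3 MT:9459-9498, plus strand; Gm28438 chr1:24613080-24613119, minus strand; GENCODE transcripts on GRCm38).
mt-Nd3: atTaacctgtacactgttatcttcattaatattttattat
Gm28438: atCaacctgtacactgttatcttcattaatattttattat
Gm28438 had 76, 74, 78 and 41 counts in the AdGFP livers and 46, 63, 70 and 72 in the AdNAMPT livers, while mt-Nd3 had 0 in each. The groups overlapped. Gm10222 also had 0 counts in every library, Gm28661 had 0 to 4 and Gm10925 0 to 4.

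mt-Co1 and mt-Nd4 lie at the edges of the same stretch and were counted over part of their length. Of the windows of mt-Co1, 765 of 1496 (51.1%) matched a nuclear transcript, and the longest shared run covered bases 1067 to 1545, the 3′ end of the gene. In mt-Nd4 it was 827 of 1329 (62.2%), in 1 run over bases 1 to 876, the 5′ end. The borders are printed below, with the shared bases in capitals, since they mark where the longest shared runs start and end (mt-Co1 bases 1037 to 1096, MT:6364-6423; mt-Nd4 bases 847 to 906, MT:11013-11072; plus strand, GENCODE transcripts on GRCm38).
mt-Co1: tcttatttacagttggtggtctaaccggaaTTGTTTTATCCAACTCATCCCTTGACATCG
mt-Nd4: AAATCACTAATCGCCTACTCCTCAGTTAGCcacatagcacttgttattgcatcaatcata
The other counted genes shared little: 135 of 1775 windows in mt-Nd5, 81 of 989 in mt-Nd2, 16 of 1533 in mt-Rnr2, and 0 in mt-Nd1, mt-Nd6, mt-Cytb and mt-Rnr1. Counts of different genes are thus not on 1 footing, whereas the same gene in different libraries is compared over the same bases.

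**Figure D1:**
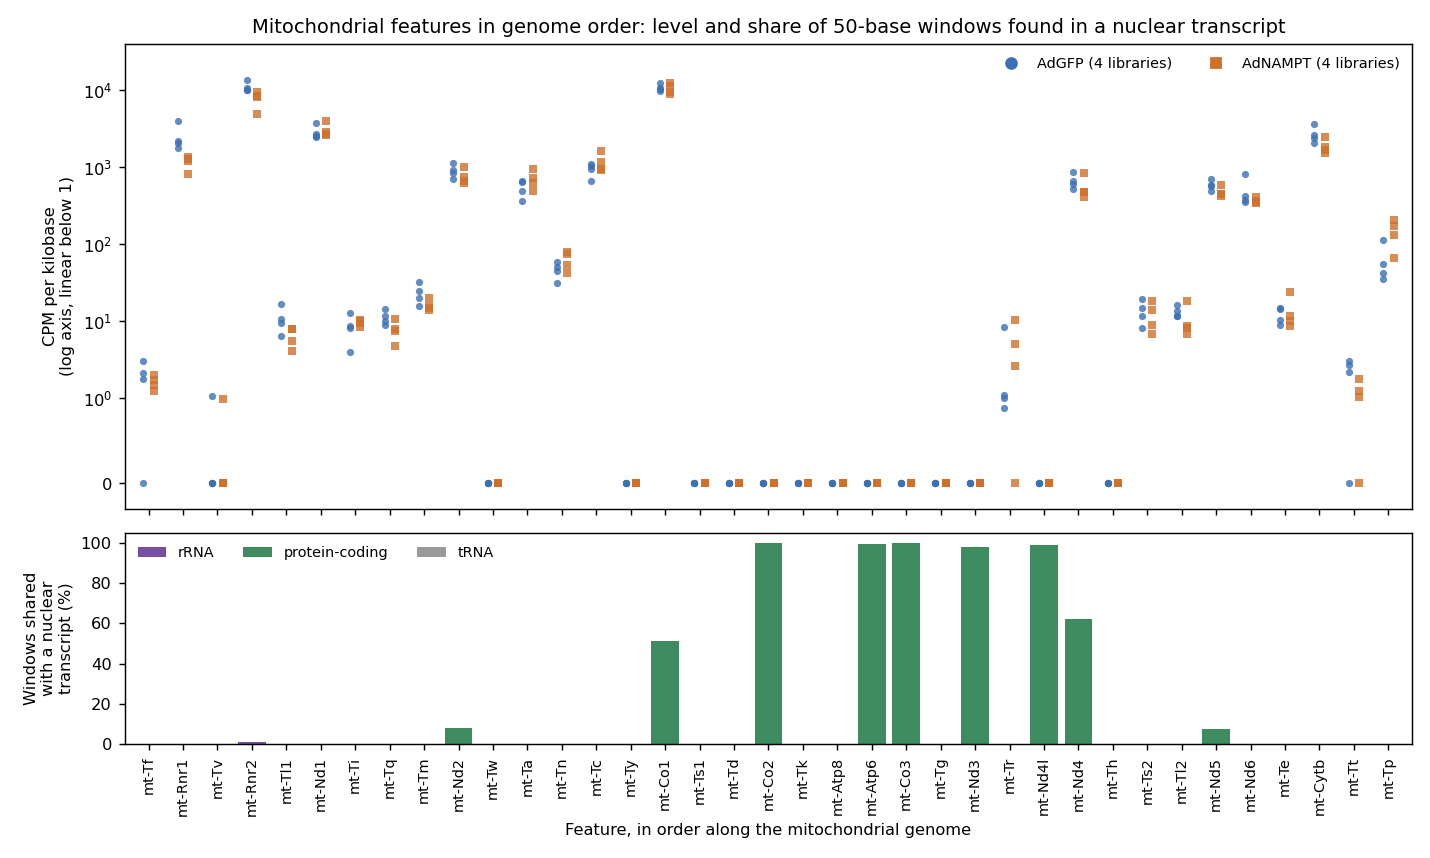
Upper panel: CPM per kilobase of each of the 37 mitochondrial features in genome order, on a log axis that is linear below 1, with 1 point per library (circles AdGFP, squares AdNAMPT). Lower panel: percent of each feature's 50-base windows that stand in an annotated nuclear transcript, coloured by class. The coding genes at 0 from mt-Co2 to mt-Nd4l are at or near 100% shared, except mt-Atp8 at 0%.

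Per length, mt-Co1 and mt-Rnr2 stood highest among the rRNAs and coding genes, with ranges over all 8 libraries of 8937 to 12377 CPM per kilobase for mt-Co1, the catalytic subunit of cytochrome c oxidase, and 4961 to 13766 for mt-Rnr2, the large-subunit rRNA. These 2 ranges overlapped. mt-Nd1 (2495 to 3994 CPM per kilobase), mt-Cytb (1546 to 3689) and mt-Rnr1, the small-subunit rRNA (815 to 4005), came next and also overlapped. The complex I genes mt-Nd2 (614 to 1142), mt-Nd4 (412 to 878), mt-Nd5 (419 to 711) and mt-Nd6 (345 to 821) followed among the coding genes. The tRNAs mt-Tc (659 to 1604) and mt-Ta (366 to 937) overlapped that last group. Taken per 1000 windows that no annotated nuclear transcript shared, the highest library of mt-Co1 reached 26158 CPM and that of mt-Nd4 2410 CPM, against 791 CPM for mt-Nd5. mt-Co1 alone made up 61.4% to 74.7% of the counts of the coding genes.

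All mitochondrial features together made up 4.58% ± 0.729 of the counts of an AdGFP library and 3.74% ± 0.342 of those of an AdNAMPT library (SD, n = 4 per group). These are shares of the reads that the counting kept. The 6 coding genes at 0 add nothing to them, and mt-Co1 and mt-Nd4 were counted over part of their length. The coding genes took 2.45, 3.08, 2.23 and 2.51% in the AdGFP livers and 2.76, 2.18, 2.08 and 2.56% in the AdNAMPT livers. These values overlapped, with the highest in AdGFP replicate 2. The rRNAs took 1.88, 2.56, 1.77 and 1.82% in AdGFP and 1.44, 1.402, 1.62 and 0.863% in AdNAMPT. Here the groups did not overlap, with AdGFP replicate 2 standing highest and AdNAMPT replicate 4 lowest. The tRNAs took 0.0126, 0.00813, 0.0135 and 0.0109% in AdGFP and 0.0187, 0.0120, 0.0149 and 0.0121% in AdNAMPT, with overlap. The widest 95% Wilson interval, for counting error alone, was 0.0241 percentage points for all mitochondrial features together. It was 0.0185 points for the coding genes and 0.0165 points for the rRNAs. For these, counting noise was small beside the spread between mice. For the tRNAs the widest interval was 0.00155 points, against an SD of 0.00235 points in AdGFP and 0.00315 points in AdNAMPT.

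Within a library, the summed rRNA count divided by the summed coding count needs no scaling. Its log2 value was -0.36 ± 0.08 for AdGFP against -0.88 ± 0.52 for AdNAMPT (SD, n = 4 per group), a difference of -0.51. AdNAMPT replicate 3 (-0.36) lay inside the AdGFP range of -0.46 to -0.27, and AdNAMPT replicate 4 stood lowest at -1.57. Without AdNAMPT replicate 4 the difference was -0.28. For tRNAs over coding genes the log2 ratio was -7.85 ± 0.52 and -7.39 ± 0.28, a difference of 0.45, and the groups overlapped. Without AdGFP replicate 2 that difference was 0.21. Neither summed ratio separated the groups. Most rRNA counts came from mt-Rnr2, and the rRNAs taken singly differed in this: mt-Rnr1 over each of the 7 counted coding genes was lower in every AdNAMPT library than in any AdGFP library, while mt-Rnr2 over a coding gene separated the groups for 1 of the 7, mt-Nd1. These single ratios were looked at after the values were seen and share genes.

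The 2 rRNAs, which form the cores of the mitochondrial ribosomal subunits, had the lowest estimates among the 14 tested members, closely followed by mt-Cytb. mt-Rnr1 (MT 70 to 1024, 955 bases) was at 1948, 3825, 1720 and 2081 CPM in the AdGFP livers and at 1134, 1202, 1307 and 778 CPM in the AdNAMPT livers. Every AdNAMPT library lay below every AdGFP library. The log2 fold change was -1.07 (SE 0.23; limma unadjusted p 0.000614, adjusted p 0.142; 95% confidence interval -1.56 to -0.57), a level of 0.477 times that in AdGFP.

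mt-Rnr2 (MT 1094 to 2675, 1582 bases) was at 16838, 21778, 15935 and 16109 CPM in AdGFP and at 13308, 12817, 14867 and 7848 CPM in AdNAMPT. The groups again did not overlap, though AdNAMPT replicate 3 and AdGFP replicate 3 were close. The log2 fold change was -0.62 (SE 0.18; limma unadjusted p 0.00499, adjusted p 0.336). The small-subunit rRNA was the more distant of the pair: mt-Rnr1 counts were 0.116, 0.176, 0.108 and 0.129 of mt-Rnr2 counts in AdGFP and 0.0852, 0.0938, 0.0879 and 0.0991 in AdNAMPT, without overlap. This ratio was looked at after the values were seen and was not tested.

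Neither rRNA passed the adjusted threshold of 0.05 in limma, nor in edgeR's quasi-likelihood test (adjusted p 0.181 and 0.513). The DESeq2 Wald test placed mt-Rnr1 just past it (adjusted p 0.0469) and mt-Rnr2 just short of it (adjusted p 0.0589). Without AdGFP replicate 2, the highest library, the log2 fold change of mt-Rnr1 was -0.88.

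Of the other rRNA transcripts named here, 1 separated the groups, and the remaining rRNA features outside the mitochondrial genome were not compared singly. Among all features tested, 0.872% were lower in AdNAMPT without overlap on CPM. Gm42418, a transcript annotated as a lincRNA that overlaps cytosolic rRNA sequence, was at 15863, 22477, 9962 and 15273 CPM in AdGFP and at 2185, 2023, 2001 and 2330 CPM in AdNAMPT, with every AdNAMPT library lower. Gm26917, another such transcript, was at 803 to 1170 CPM in AdGFP and 831 to 1240 CPM in AdNAMPT, with overlap. The annotated rRNA features outside the mitochondrial genome summed to 657 CPM in AdGFP replicate 2, mostly n-R5-8s1 (278 CPM) and Gm24601 (377 CPM), and to 1.89 to 7.67 CPM in the other libraries. The labels name a kit that removes rRNA, the study's methods name selection of poly-A RNA, and how much rRNA each library retained is not recorded. The part of rRNA removal in the mt-Rnr1 and mt-Rnr2 differences was not tested.

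Of all 12272 features tested, 6081 estimates were lower and 6191 higher in AdNAMPT, with a median log2 fold change of 0.0015. Of the 13 protein-coding genes, 7 passed the filter on low counts. All 7 estimates were lower in AdNAMPT, with a median log2 fold change of -0.37. None passed the adjusted threshold: 0 of 14 tested mitochondrial features did, rRNAs and tRNAs included, against 0.277% of all features in limma. By edgeR it was also 0 of 14 (0.269% of all features), with 6 at an unadjusted p under 0.05 beside 8.03% of all features, and by DESeq2 1 of 14, mt-Rnr1 (0.619% of all features). At a limma unadjusted p under 0.05, 6 of the 14 were lower (mt-Rnr1, mt-Rnr2, mt-Nd2, mt-Nd4, mt-Nd5 and mt-Cytb), beside 5.06% of all features. At the same level 1 of 14 was higher (mt-Tp), beside 4.64%. The 6 of edgeR held mt-Tm (unadjusted p 0.0443) but not mt-Nd2 (0.0726) or mt-Nd4 (0.118). The 14 features come from shared precursors and are not independent of each other.

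**Figure D2:**
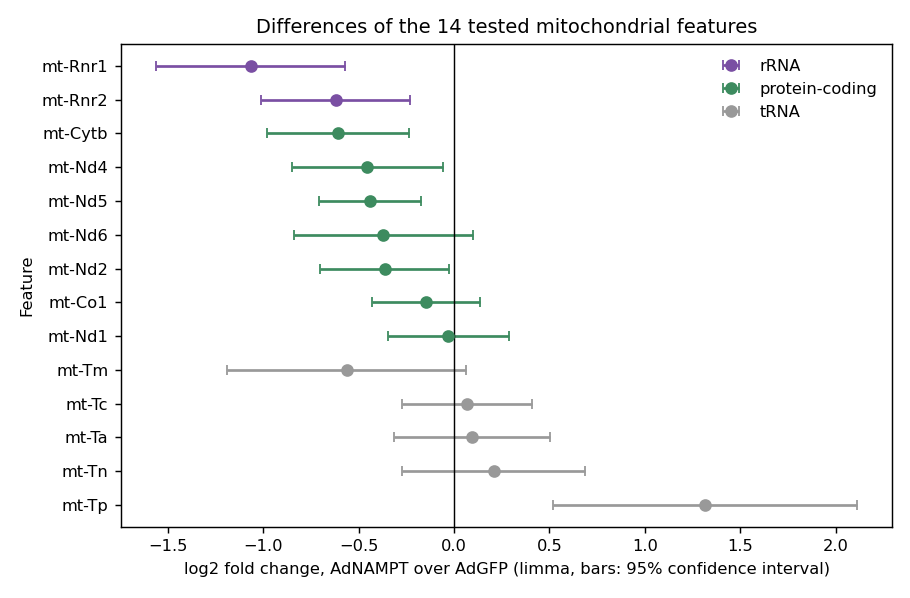
Log2 fold change of the 14 tested mitochondrial features, AdNAMPT over AdGFP, from limma, with 95% confidence intervals and colours by class. Both rRNAs and all 7 coding genes lie left of 0 and 4 of the 5 tRNAs lie right of it; no feature passed the adjusted threshold.

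mt-Cytb, the sole mitochondrially encoded subunit of complex III, was the coding gene with the lowest estimate. It was at 2722, 4221, 2382 and 2993 CPM in AdGFP and at 2784, 2094, 1902 and 1769 CPM in AdNAMPT. AdNAMPT replicate 1 lay within the AdGFP range and the other 3 lay below it. The log2 fold change was -0.61 (SE 0.17; limma unadjusted p 0.0041, adjusted p 0.326).

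Of the complex I subunits, mt-Nd2, mt-Nd4 and mt-Nd5 had estimates between -0.45 and -0.36. mt-Nd5 was at 1028, 1297, 902 and 1077 CPM in AdGFP and at 1067, 765, 819 and 807 CPM in AdNAMPT, where replicate 1 alone reached the AdGFP range (log2 fold change -0.44, SE 0.12; limma unadjusted p 0.00388, adjusted p 0.318). mt-Nd4 was at 823, 1210, 713 and 904 CPM against 1142, 649, 654 and 568 CPM, with the same replicate inside the AdGFP range (log2 fold change -0.45, SE 0.18; limma adjusted p 0.478). mt-Nd2 was at 861, 1185, 734 and 950 CPM against 1036, 773, 684 and 638 CPM (log2 fold change -0.36, SE 0.15; limma adjusted p 0.496). In all 3 genes the highest AdNAMPT library was replicate 1, which limma also gave the lowest sample weight, 0.440.

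mt-Nd1, which follows the rRNAs on the genome, had an estimate near 0. It was at 2622, 3571, 2387 and 2417 CPM in AdGFP and at 3822, 2618, 2707 and 2532 CPM in AdNAMPT, overlapping. Its log2 fold change of -0.03 (SE 0.14; 95% confidence interval -0.35 to 0.29) turned to 0.07 when libraries were scaled by their totals alone. mt-Nd6, the coding gene of the minus strand, was at 216, 426, 195 and 184 CPM in AdGFP and 211, 181, 187 and 179 CPM in AdNAMPT. AdGFP replicate 2 stood apart, and its log2 fold change of -0.37 (SE 0.21; limma adjusted p 0.63) was -0.18 without that library. mt-Nd6 overlaps the end of mt-Nd5 on the other strand, and whether counting used strand is not given in the sources used here.

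mt-Co1, the coding gene with the most counts, was at 16184, 18932, 14995 and 16558 CPM in AdGFP and 17575, 14733, 13808 and 19122 CPM in AdNAMPT. The groups overlapped fully, and the highest library was AdNAMPT replicate 4, the same library in which both rRNAs were lowest. The log2 fold change was -0.15 (SE 0.13; 95% confidence interval -0.43 to 0.14; limma adjusted p 0.757).

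**Figure D3:**
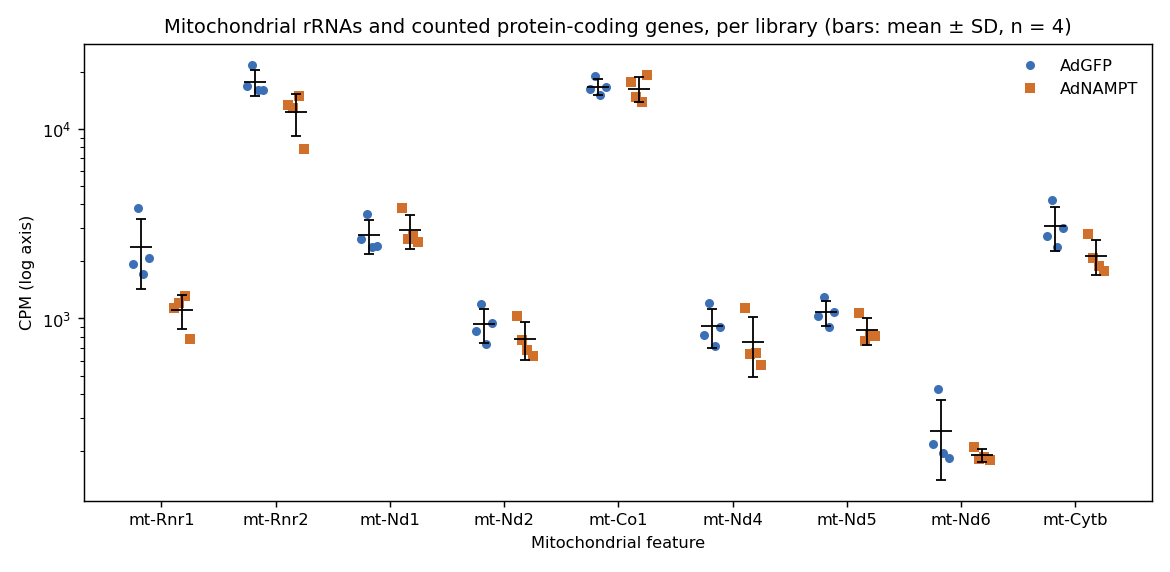
CPM of the 2 rRNAs and the 7 counted coding genes on a log axis, with 1 point per library and bars for the mean ± SD (n = 4 per group). Only mt-Rnr1 and mt-Rnr2 show every AdNAMPT square below every AdGFP circle.

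On CPM, 2 of the 14 tested features, both rRNAs, were lower in AdNAMPT without overlap, beside 0.872% of all features, and 0 of 14 were higher without overlap, beside 7.36%. After scaling by TMM, the trimmed mean that sets libraries on 1 footing, the same 2 were lower (2.71% of all features) and 0 were higher (2.10%). Ratios between coding genes within a library were looked at after the values were seen and were not tested: of the 21 pairs of counted coding genes, 7 separated the groups and 14 overlapped. The pairs share genes and are not independent. Among the 7, mt-Nd1 over mt-Cytb was 0.963, 0.846, 1.002 and 0.807 in AdGFP and 1.37, 1.25, 1.42 and 1.43 in AdNAMPT. mt-Nd2 over mt-Cytb was 0.316, 0.281, 0.308 and 0.317 against 0.372, 0.369, 0.359 and 0.360. In both, every AdNAMPT library was higher. Among the 14, mt-Nd4 over mt-Nd5 was 0.841 ± 0.065 and 0.855 ± 0.156 (SD, n = 4 each) and overlapped.

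**Figure D4:**
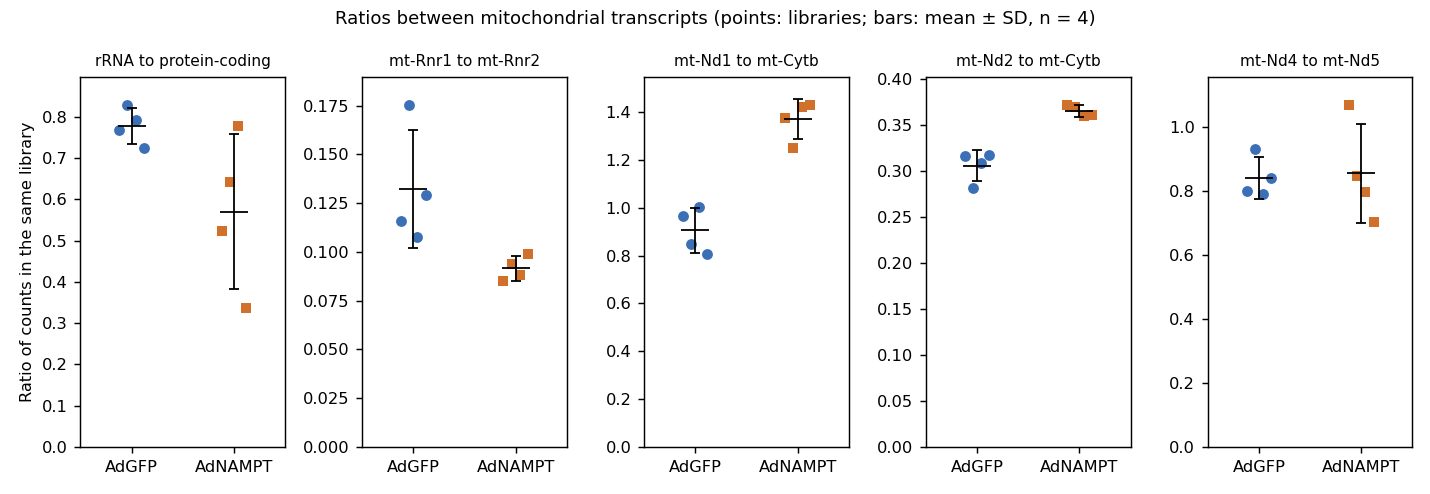
Ratio of counts between mitochondrial transcripts in the same library, with 1 point per library, bars for the mean ± SD (n = 4 per group) and axes from 0. The groups are apart for mt-Rnr1 to mt-Rnr2, mt-Nd1 to mt-Cytb and mt-Nd2 to mt-Cytb, and overlap for rRNA to protein-coding and mt-Nd4 to mt-Nd5.

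Of the 22 tRNAs, 15 had a count in some library and 5 passed the filter. The other 10 with counts never exceeded 22 in a library. In every library 92.7% to 97.8% of the tRNA counts were assigned to tRNAs annotated on the minus strand. mt-Ta and mt-Tc alone held 80.8% to 91.3%. Whether counting used strand is not given in the sources used here, so these shares do not tell which strand the reads came from. A tRNA is little longer than a read, so a read is likely to reach into the next gene: between 9 and 26 windows of 50 bases touched no other feature in 19 of the 22 tRNAs, with the genome taken as linear, while mt-Tn, mt-Tc and mt-Tp, which border unannotated bases, had 56, 51 and 67. The 4 tRNAs with the most counts are printed 5′ to 3′ as encoded in DNA with the anticodon in capitals, for alanine (MT:5018-5086), asparagine (MT:5089-5159), cysteine (MT:5192-5257) and proline (MT:15356-15422), all on the minus strand (GENCODE transcripts on GRCm38).
mt-Ta: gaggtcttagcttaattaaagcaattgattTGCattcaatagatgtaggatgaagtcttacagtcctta
mt-Tn: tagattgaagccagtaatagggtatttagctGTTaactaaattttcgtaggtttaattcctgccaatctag
mt-Tc: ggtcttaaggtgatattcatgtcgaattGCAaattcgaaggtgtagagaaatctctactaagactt
mt-Tp: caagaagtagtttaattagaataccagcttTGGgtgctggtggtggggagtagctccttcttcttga
The counts do not tell mature tRNAs and their precursors apart.

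mt-Tp, the last gene before the non-coding control region, was the tRNA with the highest estimate. It was at 3.69, 2.82, 7.59 and 2.34 CPM in AdGFP and 4.41, 13.8, 11.4 and 8.84 CPM in AdNAMPT. Replicates 2, 3 and 4 of AdNAMPT exceeded every AdGFP library, and replicate 1 fell within their range. The log2 fold change was 1.32 (SE 0.36; limma unadjusted p 0.00401, adjusted p 0.323), on counts of 32 to 226 per library. mt-Tc and mt-Ta, the 2 most abundant, overlapped between groups, at 61.6 ± 12.8 and 76.7 ± 20.9 CPM for mt-Tc (log2 fold change 0.07, SE 0.15) and at 37.0 ± 9.4 and 47.7 ± 13.04 CPM for mt-Ta (log2 fold change 0.09, SE 0.19; SD, n = 4 each). Without sample weights these log2 fold changes were 0.20 for mt-Tc and 0.25 for mt-Ta. The highest library of both was AdNAMPT replicate 1, which had the lowest weight, 0.440. mt-Tn had a log2 fold change of 0.21 (SE 0.22; limma adjusted p 0.809), which was 0.096 without AdGFP replicate 2, 0.12 without AdNAMPT replicate 3 and 0.34 without AdGFP replicate 3. mt-Tm, the tRNA for methionine, had the lone estimate below 0 (log2 fold change -0.56, SE 0.28; limma adjusted p 0.563), from 13 to 30 counts per library, which was -0.37 without AdGFP replicate 4.

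The nuclear genes that copy, cut, stabilise and translate these transcripts were examined as 2 lists. The first held textbook genes, and the second was taken by gene symbol. Of 56 genes for mitochondrial transcription, RNA cutting, stability, modification, DNA copying, biogenesis and NAD import, 55 were tested and 0 passed the adjusted threshold. Their median log2 fold change was -0.01, with 2 higher (Fastkd3 and Pus1) and 1 lower (Mterf3) at a limma unadjusted p under 0.05, which is 5.45% of the list beside 9.71% of all features. The RNA polymerase gene Polrmt was at 16.4 ± 1.5 and 18.7 ± 2.7 CPM (log2 fold change 0.02, SE 0.10). The transcription factor gene Tfam was at 54.0 ± 1.0 and 59.8 ± 2.5 CPM (log2 fold change 0.06, SE 0.06). Neither passed the threshold (limma adjusted p 0.964 and 0.787). On CPM, 7 of the 55 genes, Tfam among them, were higher in AdNAMPT without overlap, beside 7.36% of all features. On that scale 0 were lower, beside 0.872%. After scaling by TMM, 2 were higher (2.10% of all features) and 0 lower (2.71%), and Tfam overlapped.

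Lrpprc and Slirp encode partners that stabilise mitochondrial mRNAs, and Mtpap encodes the polymerase that adds their poly-A tails. Their log2 fold changes were -0.09 (SE 0.08), -0.09 (SE 0.10) and 0.15 (SE 0.10), none past the threshold (limma adjusted p 0.776, 0.822 and 0.663). Leaving out 1 library brought them as near to 0 as -0.035 (Lrpprc, AdGFP replicate 1), -0.023 (Slirp, AdNAMPT replicate 4) and 0.044 (Mtpap, AdNAMPT replicate 2). Mtpap was also higher in AdNAMPT without overlap on CPM but overlapped after scaling by TMM, while Lrpprc and Slirp overlapped on both. The largest estimates in this list were those of Fastkd3 (0.31, SE 0.14) and Mterf1a (0.30, SE 0.33) above 0 and of Mgme1 (-0.30, SE 0.16) and Mterf3 (-0.27, SE 0.10) below it, and their adjusted p values in limma were 0.512, 0.819, 0.581 and 0.452. Pus1, a pseudouridine synthase of tRNAs, had a log2 fold change of 0.26 (SE 0.10; limma adjusted p 0.452).

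The second list held 77 protein-coding genes whose symbol is Mrpl or Mrps with a number, taken as protein partners of the 2 rRNAs. Mrpl12 was in both lists. Of the 77 genes, 74 were tested and 0 passed the adjusted threshold. Their median log2 fold change was -0.03, with 8 lower and 2 higher at a limma unadjusted p under 0.05, which is 13.5% of the list beside 9.71% of all features. On CPM, 6 of the 74 were higher without overlap and 0 lower, beside 7.36% and 0.872% of all features. After scaling by TMM, 2 were higher and 3 lower, beside 2.10% and 2.71%. The extremes were Mrps6 (-0.39, SE 0.17) and Mrpl35 (-0.27, SE 0.11) below 0 and Mrpl4 (0.23, SE 0.10) and Mrps26 (0.16, SE 0.07) above it. Mrps6 was -0.21 without AdNAMPT replicate 3 and Mrpl35 -0.16 without AdGFP replicate 1.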

How the data were processed

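The authors sequenced liver RNA as single reads of 50 bases, aligned them with STAR 2.4.0b to GRCm38 (version from the submitters' processing notes) and used featureCounts 1.4.5 to count, for each gene, reads with a single alignment and a single gene. Deposited values are whole counts, CPM (counts scaled to the library total) and RPKM (CPM per kilobase of exon). Recomputing CPM and RPKM from the deposited counts gave the same values, and CPM per kilobase in the text is that RPKM. Symbols came from GENCODE M21, which matched 40340 of 41388 features. AY036118 was not analysed here.

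Features over 1 CPM in at least 3 libraries were fitted with limma 3.58.1 (voomWithQualityWeights on TMM-scaled counts, group as the term, Benjamini-Hochberg adjusted p of at most 0.05) in R 4.3.3. The study leaves rRNA out; here 353 rRNA features outside the mitochondrial genome were left out and the 2 mitochondrial ones kept. Alternatives were edgeR 4.0.16, DESeq2 1.42.0, other scalings and filters, a replicate block and each library left out. Replicates are separate mice by their titles, so p-values measure the spread between these libraries. Same-numbered mice did not deviate together in every pair (correlations 0.225, -0.045, 0.213 and 0.0054), so the numbers were not taken as pairs.

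The members and gene lists were chosen with earlier results of these data known. Every coding gene and rRNA was named. Also named were the 3 most abundant tRNAs, up to 2 highest and 2 lowest estimates per class or list, and Polrmt, Tfam, Lrpprc, Slirp and Mtpap. Pus1 was added after its values were seen. Python 3.11.15, pandas 2.3.3, numpy 2.4.6 and matplotlib 3.10.9 were used for sequences, levels and plots.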

Additional observations from a re-analysis of the deposited data

Results flagged for a closer look

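In 5 of 40 groups of 4 libraries, the most extreme library stood further from the rest than the usual limit for 1 outlying value. Chance would give about 2 of 40 if the groups were independent. They are not, since they hold the same features singly and summed. All the flags came from AdGFP replicate 2 or AdNAMPT replicate 1. AdGFP replicate 2 was apart for mt-Rnr2 (21778 CPM, others 15935 to 16838), for mt-Nd6 (426 CPM, others 184 to 216) and for the share of counts from both rRNAs (2.56%, others 1.77% to 1.88%). The same library held 657 CPM of rRNA features outside the mitochondrial genome, against 3.14 to 7.67 CPM in the other AdGFP libraries. AdNAMPT replicate 1 was apart for mt-Nd1 (3822 CPM, others 2532 to 2707) and mt-Nd4 (1142 CPM, others 568 to 654), and had the lowest total count. The part of depth and rRNA carry-over in these values was not tested.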

How the results depend on the processing

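Across the alternatives run, 142 of 144 values for counts of changed features, class shares and class ratios kept their direction and their side of the threshold or stayed within the replicate spread. The exceptions were DESeq2, which called 1 rRNA (mt-Rnr1, log2 fold change -1.22) where limma called 0, and the rRNA to coding log2 ratio with mt-Rnr1 alone, which moved to -0.97. The counts of changed features were all 0 in limma, and the others stayed at 0. Shares and ratios that moved by less than the replicate SD were taken as kept. These include the rRNA to coding log2 ratio, -0.51 with all libraries and -0.28 without AdNAMPT replicate 4. The log2 difference in coding share was -0.099, and -0.0076 without AdGFP replicate 2. The tally is thus no measure of how firm these values are. Among 484 other values, 474 were unchanged in direction and call, 9 reversed and 1, mt-Rnr1 in DESeq2, passed the threshold. Scaling by library totals alone moved the median of all features to 0.09 and reversed mt-Nd1 (0.0683) and Lrpprc (0.0044). Leaving out 1 library spanned -0.098 to 0.0676 for mt-Nd1, -0.0325 to 0.27 for mt-Ta, -0.034 to 0.15 for mt-Tc and -0.0173 to 0.098 for Polrmt; the cause was not tested. Without 1 library, estimates that moved over 1.5 times but kept their direction spanned -0.49 to -0.18 for mt-Nd6, -0.22 to -0.094 for mt-Co1, -0.45 to -0.22 for Mgme1 and 0.18 to 0.47 for Mterf1a; such moves of other single genes are given in the report. The 4 that reversed on leaving out a library lie close to 0 in the limma fit of all libraries, so their direction is not settled. The number of mitochondrial features at an unadjusted p under 0.05, 7 of 14 tested with all libraries (9.71% of all features), was 5 to 8 of 15 to 17 tested without 1 library (7.79% to 12.2% of all features) and 9 of 14 with the replicate block (9.65%). With the replicate block, 0 mitochondrial features and 41 of all features passed the threshold, against 34 of all features without it. With 4 pairs, replicates 1 and 3 of AdGFP correlated best with the AdNAMPT replicate of their own number. Replicates 2 and 4 of AdGFP did not. Depth limits the 10 sparse tRNAs, for which no fold was given.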
